A study of Homo sapiens with 8 samples.

Results

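The genes described here handle glutamate and glutamine in LN229 glioblastoma cells: the plasma membrane glutamate transporters SLC1A1, SLC1A2 and SLC1A3, the glutamine synthetase gene GLUL, the mitochondrial glutamate dehydrogenase gene GLUD1 and the glutamate decarboxylase gene GAD1. They were 6 of the 26364 genes in the count file, and 5 of them had enough reads to enter the fit of 14201 genes, all but SLC1A2. The 6 genes were selected on their measured read counts in these same libraries, including the fold changes described below. Their values are therefore given as a description, without p-values, and nothing is read from a test of them. Tests are given for 99 other genes of the same pathways, whose lists were also chosen with earlier results of these data known.

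RNA-seq was performed in 8 libraries from 2 stable clones of LN229, a human glioblastoma (grade IV) line. Clone D6 (Surv-GFP) carries pcDNA3.1-survivin-eGFP, and the fusion protein, whose nuclear export signal (NES) is functional, lies mostly in the cytoplasm of untreated cells. Clone L2 (SurvNESmut-GFP) carries pcDNA3.1-survivin-eGFP-NES, with leucine-to-alanine substitutions L96A and L98A in that signal, and the fusion protein is retained in the nucleus. Both clones were selected with G418 and both overexpress survivin, the product of BIRC5, from the transgene, so that parental cells are not among the groups. Each clone was left untreated or was exposed to 50 µM temozolomide (TMZ), an alkylating chemotherapeutic, for 48 h, with 2 libraries per group lettered a and b. The study describes its expression data as independent biological replicates with technical duplicates of each, and which of these levels the letters mark is not said. All errors and p-values rest on the spread between the lettered libraries, which may therefore be technical. SE and p-values use a spread estimated for each gene over all 4 groups and moderated across genes, not that of the compared groups alone. The sources used here do not say whether the untreated cells received a vehicle. Each form of survivin is represented by 1 clone, and the survivin form and the clone cannot be told apart.

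Glutamate is cleared from the extracellular space by sodium-coupled transporters of the SLC1 family, of which SLC1A3 (GLAST, EAAT1) and SLC1A2 (GLT-1, EAAT2) are best known from astrocytes and SLC1A1 (EAAC1, EAAT3) from neurons and epithelia. Inside the cell glutamine synthetase joins ammonia to glutamate to form glutamine, glutamate dehydrogenase feeds glutamate into the citric acid cycle and glutamate decarboxylase makes GABA from it. Glioma cells are known for exporting glutamate in exchange for cystine through the system xc- antiporter SLC7A11/SLC3A2, which ties glutamate to glutathione synthesis.

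SLC1A1 and SLC1A3 encode transporters of one family and went opposite ways in one of the clones, so the DNA before their start sites is shown. Sequences are from RefSeq, GRCh38.p14, 250 bases immediately before an annotated start site, and 5 of the 6 genes had an entry, with 8 windows in all (not SLC1A2). SLC1A3 has 3 such starts, and the windows of its first and second starts are printed, in lower case with motif matches in capitals. They lie at chr5:36596338-36596587 and chr5:36606356-36606605, and that of SLC1A1 at chr9:4490218-4490467, all on the plus strand.
SLC1A3 first start: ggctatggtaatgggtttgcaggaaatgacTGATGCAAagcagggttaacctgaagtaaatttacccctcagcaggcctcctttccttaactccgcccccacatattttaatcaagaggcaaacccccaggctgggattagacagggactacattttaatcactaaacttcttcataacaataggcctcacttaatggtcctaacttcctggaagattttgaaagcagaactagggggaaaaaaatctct
SLC1A3 second start: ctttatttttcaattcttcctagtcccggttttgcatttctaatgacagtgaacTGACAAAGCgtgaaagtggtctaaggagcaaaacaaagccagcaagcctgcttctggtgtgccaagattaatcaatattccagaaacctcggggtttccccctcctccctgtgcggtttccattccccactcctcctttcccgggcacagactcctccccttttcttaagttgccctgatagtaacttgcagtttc
SLC1A1: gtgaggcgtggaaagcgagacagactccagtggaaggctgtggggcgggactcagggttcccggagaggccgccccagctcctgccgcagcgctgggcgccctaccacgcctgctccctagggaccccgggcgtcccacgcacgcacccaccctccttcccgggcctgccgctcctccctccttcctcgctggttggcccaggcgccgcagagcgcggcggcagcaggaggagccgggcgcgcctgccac
Each window was searched on both strands for 4 motifs of stress-regulated factors. These were CARE (TGATGNAA, bound by ATF4 with C/EBP partners), CRE (TGACGTCA), AP-1 (TGANTCA) and ARE (TGACNNNGC, bound by NRF2), and no matches overlapped. TGATGCAA, a CARE match, starts at position -220 of the first SLC1A3 window, and an ARE match, TGACAAAGC, at -196 of the second. The third SLC1A3 window (chr5:36606704-36606953) holds 2 AP-1 matches, TGAATCA at -128 and TGAGTCA at -26. No match lies in the windows of SLC1A1, GLUL, GLUD1 or GAD1. Among 35116 RefSeq windows of the same length, CARE was found in 3.14%, CRE in 1.65%, AP-1 in 6.57% and ARE in 10.9%. The counts do not separate the starts of a gene, and a match describes letters only.

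Reads counted on genes ranged from 15826923 to 18861603 per library. Libraries of a group correlated at 0.994 or above across genes in log2 CPM, against at most 0.986 between groups. By that measure no library stood apart from its group. The exposed SurvNESmut-GFP libraries nevertheless differed from each other beyond counting noise more than those of any other group (mean chi-square 5.75 per gene). Replicate a of that group also had the largest share of reads assigned to no feature, 14.3%. CPM below are read counts relative to library sizes scaled by TMM (trimmed mean of M-values), they are not corrected for gene length, and errors of CPM are SD with n = 2. BIRC5 reads, which can come from the gene and the transgene alike, stood at 1133 ± 27.9 CPM in untreated and 1984 ± 64.6 CPM in TMZ-exposed Surv-GFP cells, and at 411 ± 5.22 and 258 ± 6.89 CPM in SurvNESmut-GFP cells. CDKN1A, the p53 target that encodes p21, was at 81.9 ± 6.60 and 941 ± 47.8 CPM in Surv-GFP cells and at 118 ± 1.07 and 460 ± 44.6 CPM in SurvNESmut-GFP cells, in the same order. Of the astroglial markers, GFAP stayed under 1 CPM in all 8 libraries and ALDH1L1 had no read, while S100B, FABP7 and GJA1 were present, and the summed level of the 7 astroglial markers ranged from 964 to 1032 and from 346 to 385 CPM in untreated and exposed Surv-GFP libraries, and from 77.0 to 77.3 and from 37.5 to 43.1 CPM in SurvNESmut-GFP. Of the 6 progenitor markers NES, VIM and CD44 were abundant throughout and PROM1 was at or near 0. SOX2 and OLIG2 were at 90.7 ± 2.64 and 34.0 ± 1.77 CPM in untreated Surv-GFP cells. In untreated SurvNESmut-GFP cells they were at 34.4 ± 1.14 and 6.94 ± 0.618 CPM. In the group means NES, VIM and SOX2 were lower after TMZ in both clones, OLIG2 was lower in Surv-GFP cells, and CD44 was higher in both. Of the 4 immune markers PTPRC, AIF1 and CD3E were at or near 0 and CD68 held 12.1 to 20.1 CPM in the group means. Of the 6 neuronal markers RBFOX3 and STMN2 were at or near 0, and SNAP25, SYP, ENO2 and MAP2 were present. The neuronal sum ranged from 191 to 205 and from 94.0 to 99.5 CPM in untreated and exposed Surv-GFP libraries and from 76.8 to 81.8 and from 68.6 to 74.0 CPM in SurvNESmut-GFP, and MAP2 had most of it in Surv-GFP cells, with 160 ± 9.73 CPM untreated against 19.1 ± 1.53 CPM in untreated SurvNESmut-GFP cells. All 8 proliferation markers fell upon TMZ in each clone by the edgeR test used below, and their summed level ranged from 2202 to 2367 and 921 to 955 CPM in Surv-GFP and from 2728 to 2801 and 1673 to 1734 CPM in SurvNESmut-GFP. The astroglial, neuronal and proliferation sums were lower after TMZ in both clones, as were SLC1A1 and GLUL below, whereas GAD1 and GLUD1 were higher in both and SLC1A3 was lower in Surv-GFP and higher in SurvNESmut-GFP cells. Such sums weigh abundant genes most. By the same edgeR test S100B, FABP7, SNAP25 and MAP2 fell upon TMZ in both clones. GJA1 rose in Surv-GFP cells (43.8 ± 1.38 to 57.2 ± 0.397 CPM) and fell in SurvNESmut-GFP cells. ENO2 rose in Surv-GFP cells (18.1 ± 1.01 to 25.2 ± 4.42 CPM), and SLC4A4 and SYP passed the test in neither clone. The part of these marker levels in the results was not tested. In bulk RNA, fewer cells with a transcript and less of it per cell cannot be told apart.

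Upon TMZ, SLC1A3, the glial glutamate transporter, was lower in Surv-GFP cells and higher in SurvNESmut-GFP cells. Its level was 13.7 and 13.0 CPM in the untreated Surv-GFP libraries and 2.67 and 4.42 CPM after TMZ. In SurvNESmut-GFP cells it was 7.59 and 8.72 CPM untreated and 30.5 and 30.6 CPM after TMZ. No pair of groups overlapped, and the exposed libraries held the lowest level in one clone and the highest in the other. The log2 fold change was -1.92 ± 0.16 (SE), 3.79-fold lower, in Surv-GFP cells and 1.90 ± 0.12, 3.74-fold higher, in SurvNESmut-GFP cells, a difference of 3.82 ± 0.20 between the TMZ effects. Among all tested genes, the log2 fold change was below that of SLC1A3 for 0.944% in Surv-GFP cells and for 99.2% in SurvNESmut-GFP cells. Without TMZ, SLC1A3 was lower in the SurvNESmut-GFP clone (-0.71 ± 0.14 in log2), and after TMZ it was 8.65-fold higher (3.11 ± 0.15). The exposed Surv-GFP libraries rested on 50 and 77 reads, and the log2 effect in that clone was -1.59 without replicate a and -2.35 without replicate b.

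SLC1A1, the neuronal and epithelial transporter, was lower after TMZ in both clones. Reads were at 19.6 and 18.1 CPM in untreated Surv-GFP cells and at 5.35 and 5.97 CPM after exposure, 3.33-fold lower (log2 fold change -1.74 ± 0.13). In SurvNESmut-GFP cells the levels were 16.9 and 13.3 CPM untreated and 7.66 and 8.26 CPM exposed, 1.90-fold lower (-0.93 ± 0.13). Exposed and untreated libraries did not overlap in either clone, and the decrease was smaller in SurvNESmut-GFP by 0.81 ± 0.19 on the log2 scale. The untreated SurvNESmut-GFP libraries differed most from each other, and the clone difference without TMZ, -0.32 ± 0.11, was -0.50 without replicate a and -0.15 without replicate b. After TMZ the order of the clones was the opposite (0.49 ± 0.16).

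SLC1A2, the main astrocytic transporter, had too few reads to enter the fit. It had 6 and 0 reads in untreated Surv-GFP libraries, 1 and 2 after TMZ, 4 and 2 in untreated SurvNESmut-GFP libraries and 0 and 1 after TMZ. Reads of the gene were thus found in 6 of the 8 libraries, and the libraries of 1 group differed as much as the groups did. For the libraries without a read, counting error allows up to 3 reads. A difference between groups was not detectable at this depth, and no fold is given.

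**Figure D1:**
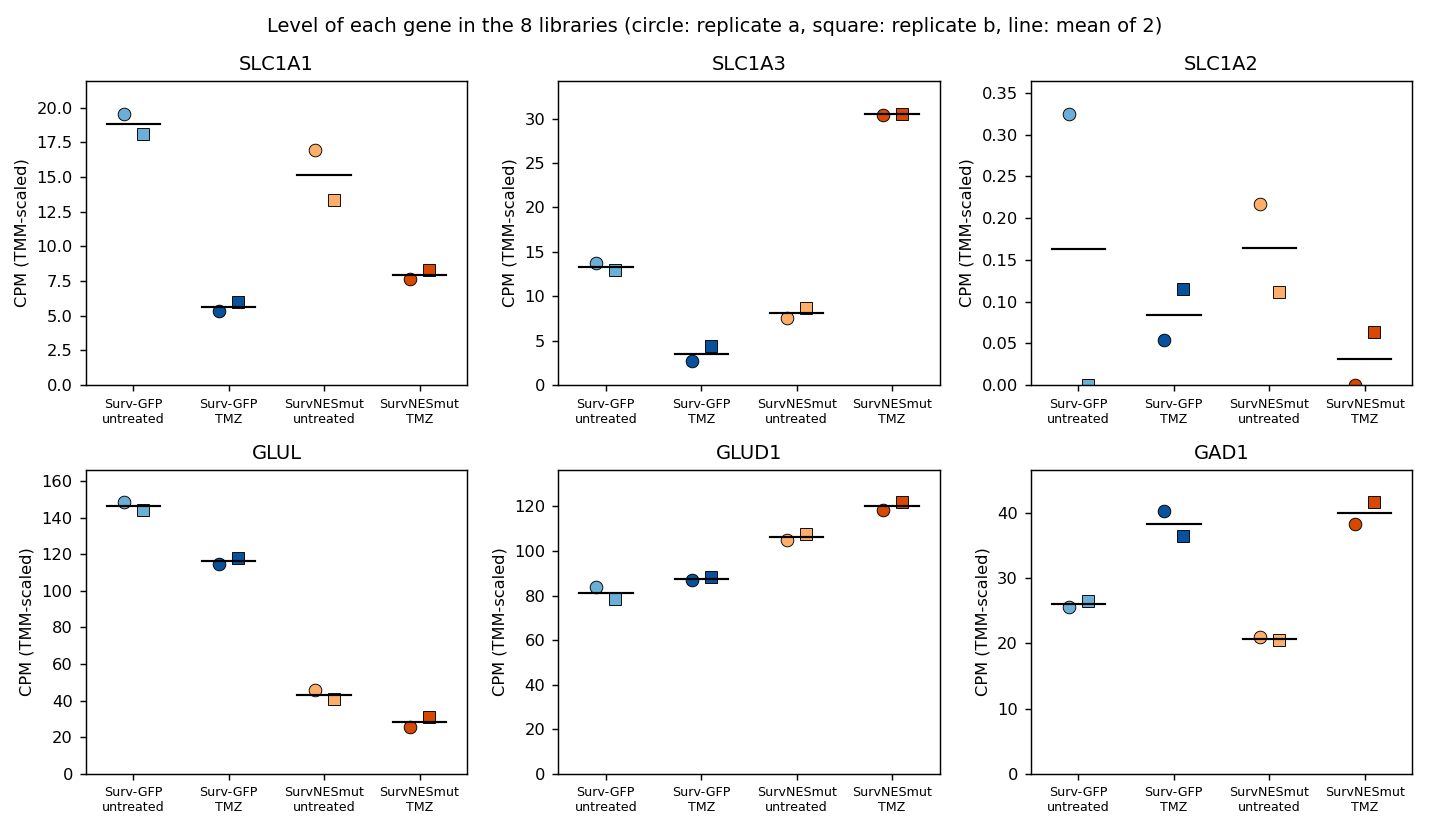
Level of each of the 6 genes by group, in CPM on TMM-scaled library sizes (linear axes from 0, a separate scale for each gene). Circles are replicate a, squares replicate b and lines the mean of 2 libraries; SLC1A3 reached 30.5 CPM in exposed SurvNESmut-GFP cells against 3.55 CPM in the other exposed clone, and SLC1A2 stayed at or under 0.325 CPM.

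The balance of both measurable transporters followed from these changes. SLC1A3 reads per SLC1A1 read were 0.701 and 0.716 in untreated and 0.50 and 0.740 in exposed Surv-GFP libraries, and 0.449 and 0.654 in untreated SurvNESmut-GFP libraries. In the exposed SurvNESmut-GFP libraries the ratio was 3.98 and 3.70, above all 6 others. The summed reads of the 3 transporter genes were 33.6 and 31.1 CPM in untreated and 8.07 and 10.5 CPM in exposed Surv-GFP libraries. For SurvNESmut-GFP the sums were 24.7 and 22.2 CPM untreated and 38.1 and 38.9 CPM exposed, so that the sum was lower after TMZ in one clone and higher in the other.

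GLUL, whose product makes glutamine from glutamate, differed more between the clones than with exposure. The Surv-GFP libraries held 148 and 144 CPM untreated and 114 and 118 CPM after TMZ. SurvNESmut-GFP libraries held 45.8 and 40.6 CPM untreated and 25.8 and 30.9 CPM after TMZ. Every SurvNESmut-GFP library lay below every Surv-GFP library, and exposed libraries lay below untreated ones within each clone. Levels in SurvNESmut-GFP cells were 3.38-fold lower without TMZ (log2 -1.76 ± 0.07) and 4.11-fold lower with it (-2.04 ± 0.07). With exposure the log2 level differed by -0.33 ± 0.06 (Surv-GFP) and -0.61 ± 0.08 (SurvNESmut-GFP). Their difference, -0.28 ± 0.10, was -0.15 without the exposed SurvNESmut-GFP replicate a and -0.41 without replicate b.

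GLUD1, whose product removes glutamate that glutamine synthetase could use, was set against GLUL within each library. GLUD1 reads per GLUL read were 0.564 and 0.545 in untreated and 0.758 and 0.750 in exposed Surv-GFP libraries. The ratio was 2.30 and 2.65 in untreated and 4.60 and 3.94 in exposed SurvNESmut-GFP libraries. The 4 groups did not overlap, with untreated Surv-GFP lowest and exposed SurvNESmut-GFP highest.

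**Figure D2:**
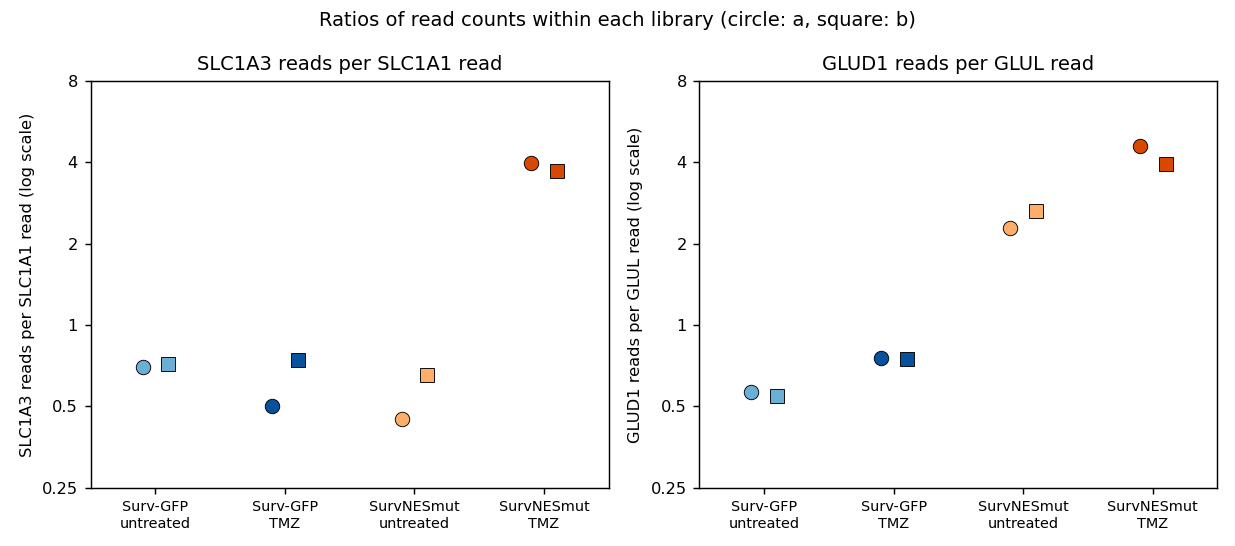
Ratios of read counts within each library on log axes, SLC1A3 to SLC1A1 on the left and GLUD1 to GLUL on the right, not corrected for gene length, so that only differences between groups can be read. Circles are replicate a and squares replicate b; the SLC1A3 to SLC1A1 ratio was 3.98 and 3.70 in exposed SurvNESmut-GFP libraries and at most 0.740 elsewhere.

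GLUD1, the mitochondrial enzyme that turns glutamate into 2-oxoglutarate, varied least of the 5 measured genes. Its level was 83.7 and 78.5 CPM untreated and 86.8 and 88.4 CPM exposed in Surv-GFP cells, and 105 and 108 CPM untreated and 119 and 122 CPM exposed in SurvNESmut-GFP cells. Groups did not overlap, and the levels were higher in that order. The log2 effect of TMZ was 0.11 ± 0.05 (Surv-GFP) and 0.18 ± 0.05 (SurvNESmut-GFP), and the clone difference was 0.39 ± 0.05 without and 0.46 ± 0.05 with TMZ. Part of its reads may be uncertain, since 22.2% of the 50-base windows of its exons also occur in GLUD2, a retrocopy that held at most 31 reads per library, and 13.2% of its exonic bases overlap SHLD2 on the other strand.

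GAD1, whose product makes GABA from glutamate, was higher after TMZ in both clones. Surv-GFP libraries held 25.6 and 26.5 CPM untreated and 40.4 and 36.4 CPM exposed, 1.47-fold higher (log2 0.56 ± 0.08). SurvNESmut-GFP libraries held 20.9 and 20.5 CPM untreated and 38.3 and 41.7 CPM exposed, 1.93-fold higher (0.95 ± 0.08). The untreated clones did not overlap (-0.33 ± 0.08) but the exposed ones did, with a difference of 0.06 ± 0.07 whose sign depended on the library left out (-0.04 to 0.10). An antisense gene, AC007405.2, overlaps 5.68% of the exonic bases of GAD1, and GAD2, which encodes the second decarboxylase, had no read in any library.

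At a Benjamini-Hochberg adjusted p of 0.05 in edgeR's quasi-likelihood fit, 1 of the 5 measured genes was counted as higher and 3 as lower upon TMZ in Surv-GFP cells, where 30.1% of all tested genes were higher and 28.9% lower. In SurvNESmut-GFP cells 3 were higher and 2 lower (18.6% and 19.1% of all tested genes). For the difference of the TMZ effects, SurvNESmut-GFP minus Surv-GFP, 3 were higher and 1 lower (16.6% and 20.2%). In SurvNESmut-GFP relative to Surv-GFP cells, 1 was higher and 4 lower without TMZ (34.7% and 29.4%), and 3 were higher and 1 lower with it (34.5% and 34.7%). These counts describe genes picked for their changes, and nothing is read from them. The log2 fold change upon TMZ had a median of -0.33 over the 5 genes in Surv-GFP and of 0.18 in SurvNESmut-GFP cells, against 0.00 over all tested genes in both.

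Levels per length of the exons, in CPM per kb, used the GENCODE v29 annotation, which may differ from that used for counting. The length was the union of all annotated exons of a gene (GLUL 9.03, GAD1 8.24 and GLUD1 3.52 kb). That union can exceed the length of the transcripts present, so the order between genes is approximate. In untreated Surv-GFP cells GLUD1 stood at 23.0 ± 1.04, GLUL at 16.2 ± 0.343, SLC1A1 at 4.71 ± 0.258, GAD1 at 3.16 ± 0.0737 and SLC1A3 at 2.13 ± 0.0836 CPM per kb. After TMZ the order in that clone was GLUD1 (24.9 ± 0.333), GLUL (12.9 ± 0.275), GAD1 (4.66 ± 0.337), SLC1A1 (1.42 ± 0.110) and SLC1A3 (0.566 ± 0.197). Untreated SurvNESmut-GFP cells kept the order of untreated Surv-GFP cells, but GLUL at 4.78 ± 0.403 and SLC1A1 at 3.78 ± 0.634 differed by less than 2 SD of the latter. With TMZ, GLUD1 led in SurvNESmut-GFP cells at 34.2 ± 0.652. SLC1A3 at 4.87 ± 0.0133 and GAD1 at 4.85 ± 0.290 followed and did not differ beyond their spread, and GLUL (3.14 ± 0.405) and SLC1A1 (1.99 ± 0.106) came last. On this measure SLC1A3 thus moved from the last place among the 5 measured genes to the second, beside GAD1, in SurvNESmut-GFP cells upon TMZ.

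**Figure D3:**
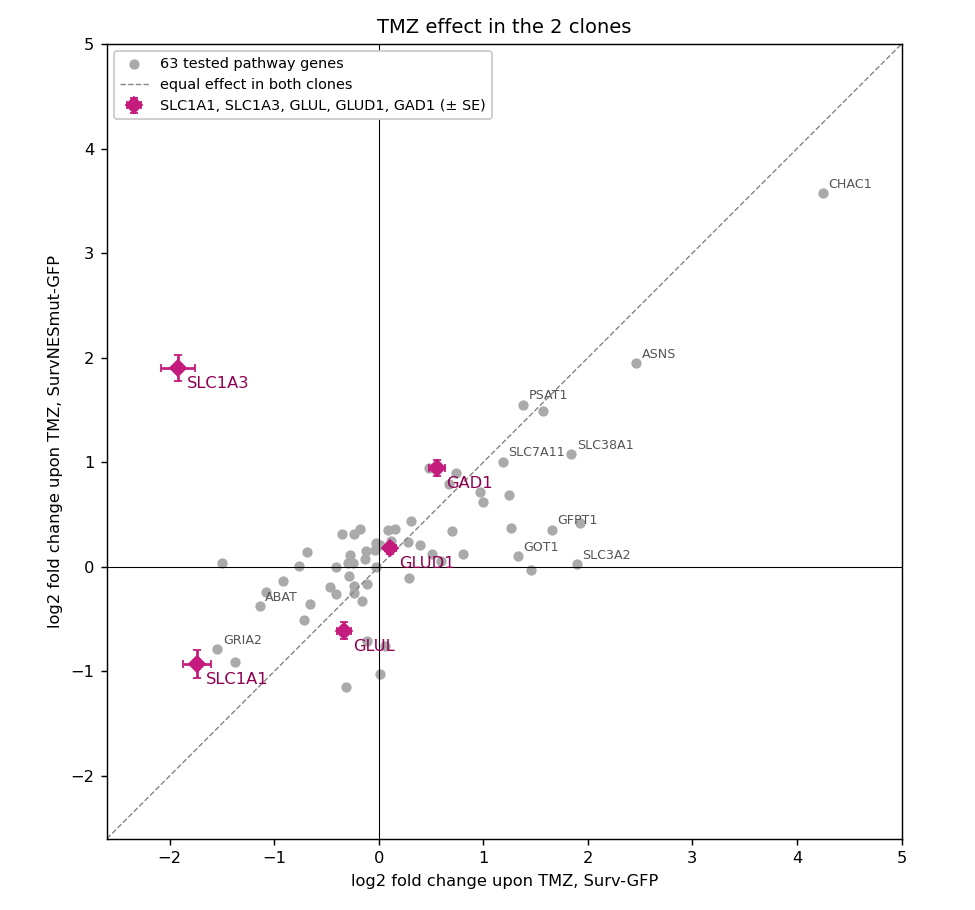
Log2 fold change upon TMZ in Surv-GFP (horizontal) and SurvNESmut-GFP cells (vertical), with the 5 measured genes as diamonds with SE bars and 63 tested pathway genes as grey points. SLC1A3 lies at the upper left, at -1.92 and 1.90, far from the other points, and CHAC1 at the upper right end at 4.25 and 3.57.

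The genes with the most similar pattern were sought by the root-mean-square distance between log2 CPM values centred on each gene's mean over the 8 libraries, among 13041 other genes, as a description. The 3 nearest to SLC1A1 were POU3F2 (0.144 on the log2 scale), a neural transcription factor, MXD3 (0.148), a MAX-binding repressor, and TROAP (0.156), a mitotic spindle protein, whereas SLC1A1 itself varied by 0.695 about its mean. SLC1A3 had no such near neighbour. DENND2A (0.386), FAM196B (0.508) and the carboxypeptidase M gene (0.563) came nearest, against 1.14 for its own variation, and DENND2A held 0.671 ± 0.268 CPM in exposed Surv-GFP and 3.44 ± 0.588 CPM in exposed SurvNESmut-GFP cells. For GLUL, which varied by 0.983, TBXAS1 (0.0929), the thromboxane synthase gene, TNFRSF19 (0.106) and DAAM2 (0.112) were nearest. GLUD1, at 0.226, had FAM177A1 (0.0253), PIGT (0.0265) and AP2A1 (0.0404). GAD1, at 0.396, had ZKSCAN2 (0.0821), C9orf91 (0.0882) and PTPRU (0.0934). The same 15 genes were found with the size factors of DESeq2.

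**Figure D4:**
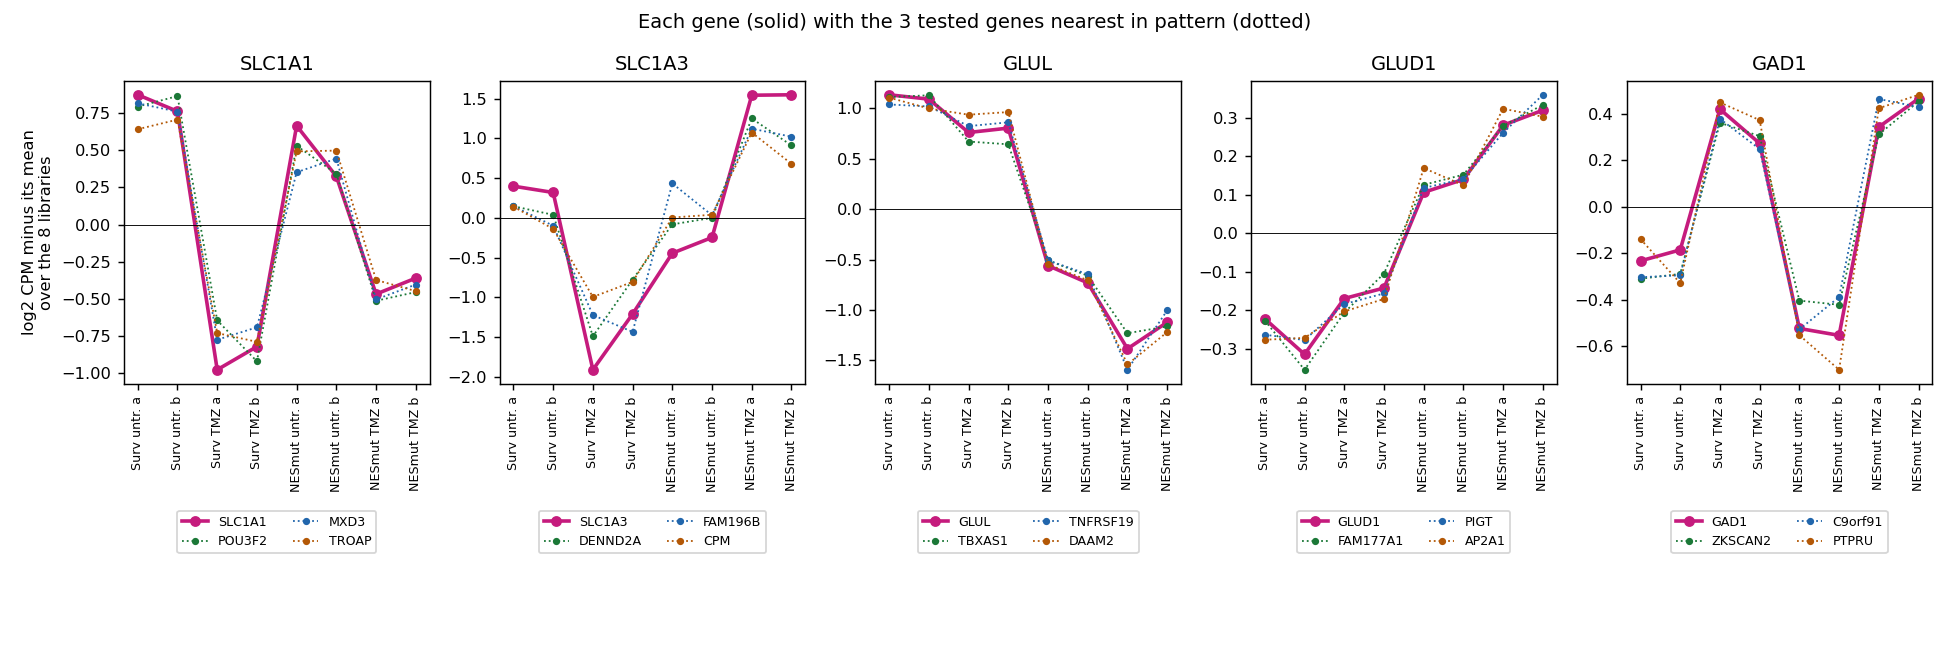
Log2 CPM of each measured gene (solid) and of the 3 genes nearest in pattern (dotted) in the 8 libraries, after subtraction of each gene's own mean; each panel has its own vertical scale. CPM in the SLC1A3 panel is the carboxypeptidase M gene. The curves in the GLUD1 panel lie within 0.0404 (root-mean-square) of GLUD1, while the nearest gene to SLC1A3 is 0.386 away.

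The rest of the pathway was examined with 8 lists of 99 further genes, of which 88 had a read and 63 could be tested. Upon TMZ 24 rose and 21 fell in Surv-GFP cells, and 24 rose and 11 fell in SurvNESmut-GFP cells, by edgeR's quasi-likelihood test with Benjamini-Hochberg adjustment over all tested genes, which holds for every adjusted p below, and log2 fold changes are given ± SE. These were 38.1% and 33.3% of the 63 genes in Surv-GFP and 38.1% and 17.5% in SurvNESmut-GFP cells, against 30.1% and 28.9%, and 18.6% and 19.1%, of all tested genes. The same shares of all tested genes stand behind the counts of each list below, from which nothing particular to a list is read. The median log2 fold change of the 63 genes was 0.02 and 0.12. In both clones 17 genes rose and 8 fell, and 2 (SLC25A12 and CAD) fell in Surv-GFP and rose in SurvNESmut-GFP cells. The number that fell in SurvNESmut-GFP cells was 6 without the untreated replicate a and 5 without the untreated replicate b of that clone. The TMZ effects differed for 34 of the 63 genes, and the signed difference, SurvNESmut-GFP minus Surv-GFP, was positive for 18 and negative for 16 (28.6% and 25.4%, against 16.6% and 20.2% of all tested genes). A positive difference includes genes whose decrease was smaller in SurvNESmut-GFP cells, such as ABAT. The 18 became 9 and 11 without the untreated Surv-GFP replicates a and b, and 8 and 10 without those of SurvNESmut-GFP.

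Among the other glutamate transporters, 3 of 7 rose and 3 fell in Surv-GFP cells, and 2 rose and 2 fell in SurvNESmut-GFP cells. SLC7A11, the cystine-glutamate antiporter, was at 90.2 and 102 CPM untreated and 229 and 210.2 CPM exposed in Surv-GFP cells and at 129 and 135 and 293 and 237 CPM in SurvNESmut-GFP cells. Exposed libraries lay above untreated ones in both clones, with log2 fold changes of 1.19 ± 0.08 (adjusted p = 4.24e-09) and 1.0 ± 0.08 (adjusted p = 9.15e-08). Its partner chain SLC3A2 rose in Surv-GFP cells from 203 and 220.3 to 794 and 779 CPM (1.89 ± 0.05, adjusted p = 2.44e-14). In SurvNESmut-GFP cells SLC3A2 was at 697 and 722 CPM untreated and 731 and 714 CPM exposed (0.03 ± 0.05, adjusted p = 0.706), and the difference between the effects was -1.87 ± 0.07 (adjusted p = 1.82e-11). The untreated SurvNESmut-GFP libraries were thus already near the exposed Surv-GFP level. Of the mitochondrial carriers, the glutamate carrier SLC25A22 rose in Surv-GFP cells (0.81 ± 0.06, adjusted p = 3.03e-09), and the aspartate-glutamate carrier SLC25A12 fell there (-0.35 ± 0.09, adjusted p = 0.00206) and rose in SurvNESmut-GFP cells (0.32 ± 0.08, adjusted p = 0.00332, 0.0547 without the untreated replicate b). ARL6IP5, a negative regulator of SLC1A1, fell in both clones (-0.40 ± 0.05 and -0.26 ± 0.05, adjusted p = 3.26e-06 and 0.00120).

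Among glutamine transporters, 6 of 9 rose and 1 fell in Surv-GFP cells and 3 rose and 1 fell in SurvNESmut-GFP cells. SLC1A5 (ASCT2), a main route of glutamine into tumour cells and a relative of the 3 glutamate transporters, rose in both clones, by 0.67 ± 0.06 (adjusted p = 1.66e-07) and 0.79 ± 0.06 (adjusted p = 9.15e-08) in log2. Mean levels, untreated and exposed, were 251 ± 1.55 and 401 ± 0.0402 CPM in Surv-GFP and 268 ± 4.42 and 463 ± 58.8 CPM in SurvNESmut-GFP libraries, without overlap. SLC38A1, a sodium-coupled glutamine importer, also rose in both, by 1.84 ± 0.07 (adjusted p = 1.11e-12) and less in SurvNESmut-GFP cells (1.08 ± 0.07, difference -0.76 ± 0.09, adjusted p = 9.62e-06). The exchanger SLC7A5 (LAT1), which pairs with SLC3A2, rose in Surv-GFP cells (1.46 ± 0.06, adjusted p = 3.25e-12), with -0.03 ± 0.06 (adjusted p = 0.732) in SurvNESmut-GFP cells. Its untreated level was 354 and 409 CPM in Surv-GFP and 2232 and 2141 CPM in SurvNESmut-GFP cells, the largest clone difference of this list in a gene above 1 CPM (2.52 ± 0.06, adjusted p = 5.33e-15). SLC38A3, another importer, fell in Surv-GFP cells (-1.38 ± 0.21, adjusted p = 3.17e-05). In SurvNESmut-GFP cells it held only 10 to 24 reads per library, and its decrease (-0.91 ± 0.33, adjusted p = 0.0381) was past the threshold in no refit without 1 library of that clone (adjusted p up to 0.138) and not with DESeq2 (0.148).

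The next list holds enzymes that take the amide group from glutamine. Of 12 glutaminases and amidotransferases 5 rose and 4 fell in Surv-GFP cells, and 8 rose and none fell in SurvNESmut-GFP cells. GLS2, the liver-type enzyme, held 2 to 18 reads per library, with log2 fold changes of 0.48 ± 0.78 and 0.94 ± 0.39 that did not pass the test (adjusted p = 0.624 and 0.0704). Asparagine synthetase, ASNS, showed the largest increase of the list, 5.51-fold in Surv-GFP (2.46 ± 0.07, adjusted p = 3.01e-14) and 3.85-fold in SurvNESmut-GFP cells (1.94 ± 0.07, adjusted p = 3.10e-12). GFPT1, which starts hexosamine synthesis, rose by 1.66 ± 0.05 and 0.35 ± 0.05 (adjusted p = 3.25e-13 and 7.70e-05), less in SurvNESmut-GFP cells by -1.30 ± 0.08 (adjusted p = 3.12e-09). CAD, the first enzyme of pyrimidine synthesis, went from 179.8 and 179.5 to 150.0 and 155 CPM in Surv-GFP cells and from 257 and 244 to 328 and 296 CPM in SurvNESmut-GFP cells. These opposite changes of -0.24 ± 0.06 and 0.32 ± 0.05 differed by 0.55 ± 0.08 (adjusted p = 4.03e-05).

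Of 11 genes for glutamate dehydrogenase 2 and transaminases, 4 rose and 4 fell in Surv-GFP cells, and 4 rose and 2 fell in SurvNESmut-GFP cells. GPT2, the mitochondrial alanine transaminase, rose alike in both clones, by 1.57 ± 0.07 and 1.49 ± 0.07 (adjusted p = 8.72e-12 and 1.53e-10), with a difference of -0.08 ± 0.10 that did not pass the test (adjusted p = 0.552). PSAT1, which passes the amino group of glutamate into serine synthesis, rose by 1.38 ± 0.07 and 1.55 ± 0.07 (adjusted p = 3.82e-11 and 3.12e-11). GOT1, the cytosolic aspartate transaminase, rose in Surv-GFP cells from 55.2 and 54.0 to 141 and 134 CPM (1.33 ± 0.05, adjusted p = 4.78e-12). Its level in SurvNESmut-GFP cells was 47.6 and 46.3 CPM untreated and 52.3 and 48.5 CPM exposed (0.10 ± 0.06, adjusted p = 0.206), and the effects differed by -1.23 ± 0.08 (adjusted p = 1.17e-08). The mitochondrial GOT2 had log2 fold changes of -0.02 ± 0.05 and -0.00 ± 0.05, and GLUD2 of -0.18 ± 0.32 and 0.37 ± 0.29, none past the test (adjusted p from 0.355 to 0.963). OAT, ornithine aminotransferase, fell in both clones (-0.71 ± 0.06 and -0.50 ± 0.06, adjusted p = 1.29e-08 and 3.20e-06). AADAT fell in Surv-GFP cells (-0.68 ± 0.07, adjusted p = 7.30e-07), with 0.14 ± 0.08 (adjusted p = 0.183) in SurvNESmut-GFP cells and a difference of 0.83 ± 0.11 (adjusted p = 2.43e-05).

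In proline synthesis from glutamate, ALDH18A1, which makes the first step, and PYCR1, which makes the last, changed in opposite directions in Surv-GFP cells. ALDH18A1 fell there from 219 and 203 to 107 and 117 CPM (-0.91 ± 0.06, adjusted p = 9.58e-10), with -0.13 ± 0.06 in the SurvNESmut-GFP clone (adjusted p = 0.0980). PYCR1 rose in both clones (1.0 ± 0.06 and 0.62 ± 0.06, adjusted p = 2.81e-10 and 3.89e-07). Of the 5 genes tested, 2 rose and 2 fell in Surv-GFP cells and 2 rose and 1 fell in SurvNESmut-GFP cells.

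Of 9 glutathione genes 4 rose and 1 fell in Surv-GFP cells, and 5 rose and none fell in SurvNESmut-GFP cells. CHAC1, which degrades glutathione, had the largest fold change upon TMZ of all 63 genes, from 2.76 and 3.15 to 59.5 and 53.1 CPM in Surv-GFP cells (4.25 ± 0.12, adjusted p = 3.54e-14), and from 6.18 and 5.39 to 72.3 and 65.3 CPM in SurvNESmut-GFP cells (3.57 ± 0.10, adjusted p = 7.97e-13). For glutamate-cysteine ligase, the enzyme that commits glutamate to glutathione, the catalytic subunit gene GCLC fell (-0.29 ± 0.07, adjusted p = 0.00165) and the modifier subunit gene GCLM rose (0.51 ± 0.08, adjusted p = 7.14e-05) in Surv-GFP cells. In SurvNESmut-GFP cells neither passed the test (GCLC 0.04 ± 0.07, GCLM 0.12 ± 0.07, adjusted p = 0.690 and 0.212). Relative to Surv-GFP, GCLM was higher in SurvNESmut-GFP cells without TMZ (1.36 ± 0.08, adjusted p = 3.15e-10) and with it (0.97 ± 0.08, adjusted p = 1.04e-08).

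The 3 tested genes of GABA metabolism all fell in Surv-GFP cells, the opposite way to GAD1. These were ABAT and ALDH5A1, of GABA breakdown, and ALDH9A1. ABAT, the GABA transaminase gene, was at 47.9 and 49.4 CPM untreated and 22.2 and 21.9 CPM exposed in Surv-GFP cells (-1.14 ± 0.07, adjusted p = 1.29e-09). In SurvNESmut-GFP cells it was at 9.49 and 10.5 and 7.77 and 7.63 CPM (-0.37 ± 0.11, adjusted p = 0.0146), and this call was lost without the untreated replicate b (adjusted p = 0.113) and without the exposed replicate b (0.0501). The SurvNESmut-GFP libraries all lay below the Surv-GFP libraries, with a clone difference of -2.28 ± 0.08 without TMZ (adjusted p = 7.27e-13). ALDH5A1, succinate semialdehyde dehydrogenase, fell in Surv-GFP cells (-1.08 ± 0.12, adjusted p = 8.24e-07), was -0.24 ± 0.23 in SurvNESmut-GFP cells (adjusted p = 0.449), and was lower in untreated SurvNESmut-GFP than Surv-GFP cells by -2.91 ± 0.15 (adjusted p = 5.99e-11). ABAT, ALDH5A1 and GLUL thus shared the lower level in SurvNESmut-GFP cells.

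Few glutamate receptor genes were expressed, and 7 of 26 could be tested, of which 3 fell and none rose in each clone. GRIA2, an AMPA receptor subunit, fell in Surv-GFP cells from 13.7 and 12.9 to 3.69 and 5.45 CPM (-1.54 ± 0.16, adjusted p = 3.66e-07) and was at 0.596 and 0.778 and 0.468 and 0.315 CPM in SurvNESmut-GFP cells. The kainate receptor gene GRIK2, the most abundant of them, fell in both clones (-0.65 ± 0.08 and -0.35 ± 0.08, adjusted p = 2.10e-06 and 0.00271). Receptor genes were lower in SurvNESmut-GFP cells for 5 of the 7 without TMZ and for 5 of the 7 with it.

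**Figure D5:**
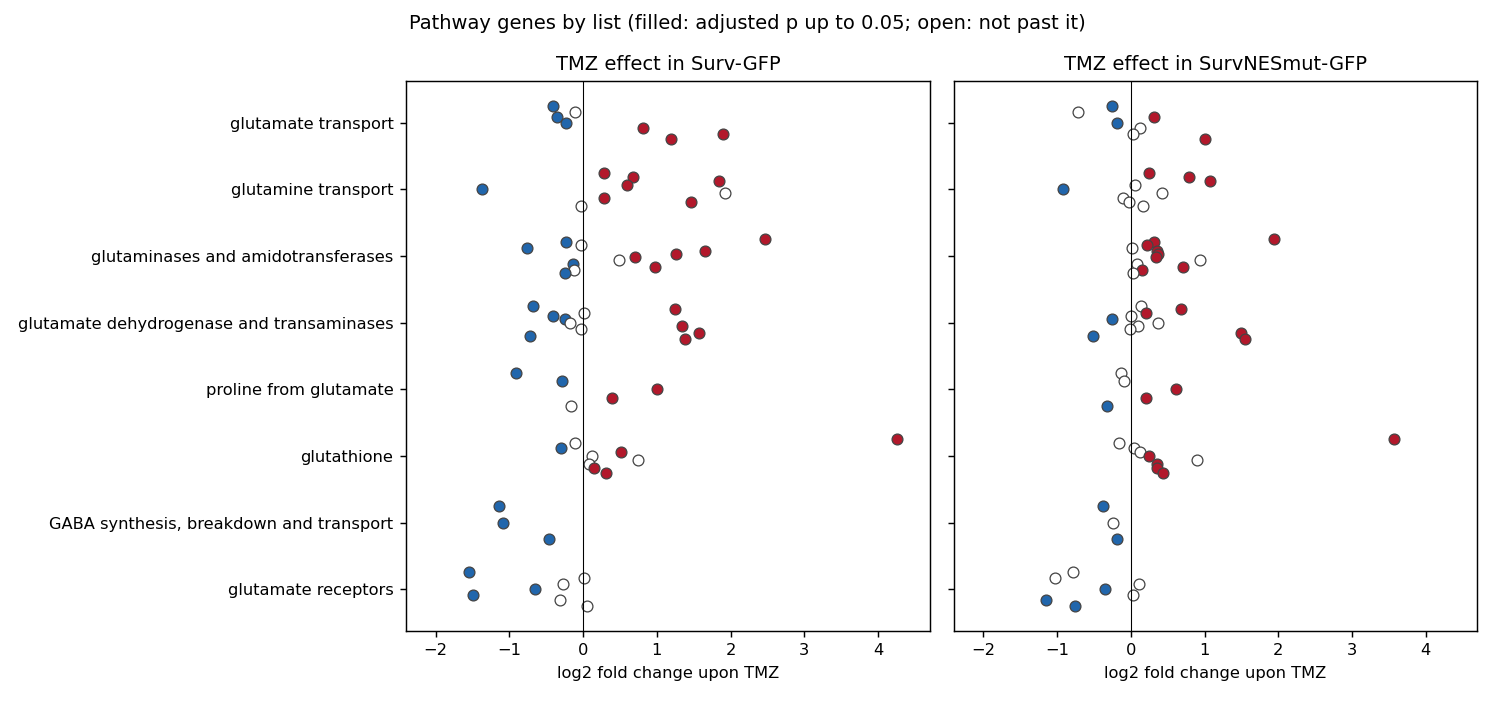
Log2 fold change upon TMZ of the 63 tested pathway genes by list, in Surv-GFP (left) and SurvNESmut-GFP cells (right). Filled points have an adjusted p up to 0.05, red for higher and blue for lower, and open points do not; 24 genes are red in each clone, and 21 are blue on the left and 11 on the right.

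Between the clones 26 of the 63 pathway genes were higher and 28 lower in SurvNESmut-GFP cells without TMZ, and 22 and 27 with it. These were 41.3% and 44.4% without TMZ (34.7% and 29.4% of all tested genes) and 34.9% and 42.9% with it (34.5% and 34.7%), with median log2 differences of -0.01 and -0.04 against 0.03 and 0.00 over all tested genes. In untreated cells 6 of 7 glutamate transport genes were higher in SurvNESmut-GFP cells, among them SLC7A11 (0.45 ± 0.09, adjusted p = 2.08e-04) and SLC3A2 (1.74 ± 0.05, adjusted p = 4.17e-14). SLC1A1 and SLC1A3 were lower, but the list holds no SLC1 gene with a read and includes mitochondrial and vesicular carriers, so the 6 are not their like. After TMZ 3 of the 7 list genes were higher and 3 lower. Among glutamine-using enzymes in untreated cells, GFPT2 was higher in SurvNESmut-GFP cells by 1.92 ± 0.08 (adjusted p = 3.93e-12) and PPAT, the first enzyme of purine synthesis, was lower (-0.33 ± 0.07, adjusted p = 3.33e-04). ALDH4A1, of proline breakdown, was higher by 1.28 ± 0.09 (adjusted p = 2.12e-09).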

How the data were processed

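RNA of 8 libraries (2 clones, untreated or TMZ-exposed, 2 lettered replicates each) was sequenced by the authors and assigned to 4 groups from the sample labels. The count file that the authors deposited holds read counts (whole numbers) for each gene symbol, without normalization. The submitters' processing notes name STAR 2.5.0b, Cufflinks 2.2.1 and edgeR without a role, and no source used here gives the counting program, annotation, genome build or strand setting. Reads assigned to no feature (11.2 to 14.3% of a library) or to several (1.19 to 1.28%) are 2 rows that name no gene and were left out. The authors' comparison tables hold log fold changes, log CPM, F, p and FDR values and were not used.

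The fits used edgeR 4.0.16 under R 4.3.3, which calls limma 3.58.1. All 8 libraries entered 1 fit of 4 group means after TMM scaling and edgeR's grouped low-count filter (filterByExpr), and the legacy quasi-likelihood test was applied to the 14201 genes left. Clones were compared without and with TMZ, exposed with untreated cells in each clone, and the effects of TMZ with each other, which makes 5 contrasts. The edgeR test and DESeq2 were also run on simulated counts of the filtered genes. This covered 4 of the 5 contrasts, not the clone difference with TMZ, and none of the other alternatives below. Libraries of a group differed by more than counting noise, for which a mean chi-square of 1 per gene is expected. The mean chi-square was 5.75 in exposed SurvNESmut-GFP cells and 2.20 to 2.66 in the other groups. The fit shares its spread over the groups, so SE and p-values can be too small in contrasts that include exposed SurvNESmut-GFP cells. Limits on counts of 0 cover counting error only. The members and lists were chosen with earlier results of these data known. From each list and contrast, at most 2 genes per direction with the largest log2 fold change were eligible for naming, given an adjusted p up to 0.05, libraries that do not overlap and a mean of 1 CPM. SLC7A11, SLC1A5, GLS2, GLUD2, GOT1, GOT2, GPT2, GCLC, GCLM, ABAT and GAD2 were named regardless, and 1 further gene that the rule selects is not reported here. A gene so named may be given in other contrasts too, and the 3 genes nearest in pattern to each measured member were also named. The alternatives were 2 other scalings, 2 other filters, DESeq2 1.42.0, the edgeR 4 quasi-likelihood method, a block for the replicate letter, a robust prior, leaving out each library and fitting the compared groups alone.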

Additional observations from a re-analysis of the deposited data

Results flagged for a closer look

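The TMZ effect on SLC1A3 had opposite signs in the clones, with both exposed libraries below both untreated ones in Surv-GFP cells and above them in SurvNESmut-GFP cells. The difference was 3.82 on the log2 scale, and no p-value is given because the gene was chosen for it.

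For 29 further pathway genes, those that the naming rule picked in any contrast, the TMZ effect differed between the clones by edgeR's quasi-likelihood test of the difference, at a Benjamini-Hochberg adjusted p up to 0.05. The difference, SurvNESmut-GFP minus Surv-GFP in log2, was negative among transporters for SLC3A2 (-1.87), SLC7A5 (-1.49), SLC38A1 (-0.76), SLC25A22 (-0.69) and SLC38A2 (-0.54), and positive for SLC25A12 (0.67). Among enzymes that use glutamine it was negative for GFPT1 (-1.30), GFPT2 (-0.89) and ASNS (-0.52) and positive for CTPS2 (0.77), CAD (0.55), PPAT (0.28) and PFAS (0.27). For transaminases it was -1.23 (GOT1), -0.56 (BCAT1), 0.83 (AADAT), 0.41 (CCBL1) and 0.21 (OAT), and for proline genes 0.78 (ALDH18A1) and -0.38 (PYCR1). Among glutathione genes it was -0.68 (CHAC1), -0.39 (GCLM), 0.34 (GCLC) and 0.27 (GGT7). Genes of GABA metabolism had positive differences, 0.84 for ALDH5A1, 0.76 for ABAT and 0.28 for ALDH9A1, and the receptors GRM8 and GRIK2 had -0.82 and 0.30. Of these, CHAC1, ALDH5A1, GCLC, GCLM, PPAT, OAT, GRM8, PFAS, GGT7, CCBL1, GRIK2 and ALDH9A1 lost the call in at least 1 alternative.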

How the results depend on the processing

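Of 420 refitted log2 fold changes of the 5 measured genes 415 moved by less than the spread between replicates, and a sign changed only for the GAD1 clone difference with TMZ (-0.04 to 0.10), which was not past the threshold. For the refits without 1 library this was nearly fixed in advance. Leaving out 1 of 2 libraries moves a group mean by less than their SD, so the 415 say little about the dependence on single libraries. The counts over all tested genes stayed within 1.5 times in all 168 refits, as did 161 of 168 counts of pathway genes. Pathway genes lower upon TMZ in SurvNESmut-GFP cells numbered 11, and 6 with DESeq2 and between 5 and 11 without 1 library, lowest without the untreated SurvNESmut-GFP replicate b. Those with a positive difference of the TMZ effects (SurvNESmut-GFP minus Surv-GFP) numbered 18, and between 8 and 17 without 1 library, lowest without the untreated SurvNESmut-GFP replicate a. Of 4275 refits of single pathway genes 151 lost a call, 29 gained one and none reversed. No effect shared by libraries of the same letter was seen (correlations of deviations from -0.0671 to 0.0832 across genes). Noise makes up much of such deviations, so this cannot tell whether the letters pair the libraries. With the replicate block, 24 pathway genes were higher and 20 lower upon TMZ in Surv-GFP cells, 24 and 10 in SurvNESmut-GFP cells, 17 and 16 for the difference, 24 and 27 between untreated and 22 and 27 between exposed clones. Having 2 libraries per group and 50 to 77 reads of SLC1A3 in exposed Surv-GFP cells limits the precision, and a difference in SLC1A2 is below what this depth can show.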
